A study of Homo sapiens with 12 samples.

Results

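The miR-130 and miR-301 family was examined in SLAMseq libraries of Huh7 cells, a human hepatocellular carcinoma line. Its 5 members were taken by name, hsa-miR-130a-3p, hsa-miR-130b-3p, hsa-miR-130b-5p, hsa-miR-301a-3p and hsa-miR-301b-3p, out of 2652 mature miRNAs in the tables, and all 5 had reads in all 12 libraries. SLAMseq marks RNA made during a labelling period with 4-thiouridine (4SU), a uridine analogue that is alkylated with iodoacetamide and then read as T>C conversions. The study asked how blocking splicing affects the production of new miRNA. Its 3 conditions had 4 libraries each, numbered by independent experiment. Control cells received the vehicle DMSO without 4SU for 4 h, DMSO cells received the vehicle with 500 µM 4SU, and PlaB cells received pladienolide B (PlaB), an inhibitor of the splicing factor SF3B1, with 500 µM 4SU. The methods of the study give 1 µM PlaB, whereas the sample labels give 500 µM. All libraries came from the same cell line, with no change of genotype, and the Control condition is also the background for T>C conversions that arise without label.

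A miRNA is cut by Drosha from a hairpin in a primary transcript and then by Dicer into a duplex, of which the 5p or the 3p strand is loaded into an Argonaute protein while the other is mostly degraded. The 3p strands of the family share the seed, the stretch at the 5′ end through which a miRNA pairs with its target mRNAs. The family has been studied in liver cancer, in fibrosis and in the response to hypoxia.

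Of the 5 members, 4 were found in the RefSeq table of mature miRNAs (GRCh38.p14). They are printed to show which members share a seed and how far the others differ, with the seed (bases 2 to 8) in capitals.
hsa-miR-130b-3p: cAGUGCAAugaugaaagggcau
hsa-miR-301a-3p: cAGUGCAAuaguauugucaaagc
hsa-miR-301b-3p: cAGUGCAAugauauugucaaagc
hsa-miR-130b-5p: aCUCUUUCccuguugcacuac
hsa-miR-130a-3p is named only. The seed AGUGCAA was common to the 3 printed 3p members, and miR-130b-5p, the other strand of the miR-130b hairpin, had the seed CUCUUUC. miR-301a-3p and miR-301b-3p differed at 2 positions, A10G and G11A, with positions counted from 1 at the 5′ end of miR-301a-3p and its base given first. miR-130b-3p differed from miR-301a-3p at 11 of the 22 positions compared and from miR-301b-3p at 9. No difference between any of these 3 sequences paired a U with a C, the change that the conversion assay reads.

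The members came from 4 hairpins at 3 places in the genome (GENCODE version 44 on GRCh38). MIR130A lies at chr11:57641198-57641286 on the plus strand, in an intron of both transcripts of the lncRNA MIR130AHG that contain it. MIR301B, at chr22:21652981-21653058, and MIR130B, at chr22:21653304-21653385, lie on the plus strand within the lncRNA gene ENSG00000207751 with 245 bases between them. MIR301B was intronic in 3 transcripts of that gene, whereas MIR130B was intronic in 1 and crossed the edge of an exon in 2. MIR301A lies at chr17:59151136-59151221 on the minus strand, in an intron of the protein-coding gene SKA2 in 10 transcripts. The same gene holds MIR454, with 13263 bases between the hairpins, and miR-454-3p also has the seed AGUGCAA.

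Total reads on miRNAs ranged from 1667668 to 2393680 in Control, from 1968612 to 3880241 in DMSO and from 1522210 to 1979696 in PlaB. The 2 deepest libraries, DMSO replicates 1 and 2, combine reads of original, re-prepared and re-amplified libraries. The T>C conversion rate, conversions as a percent of covered T positions, over all miRNAs of a library was 0.0225% to 0.0319% in Control, 0.246% to 0.290% in DMSO and 0.135% to 0.171% in PlaB. The 4 hepatocyte miRNAs (miR-122-5p, miR-192-5p, miR-194-5p and miR-148a-3p) summed to between 113602 and 161032 CPM (reads scaled to an equal total in every library), and 10 miRNAs of blood, endothelium, stroma, muscle and neurons to between 486 and 763.

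miR-130a-3p had the highest T>C conversion rate of the members in all 4 DMSO libraries. Its T>C conversion rate was 0.102%, 0.149%, 0% and 0.0502% in Control replicates 1 to 4. With 4SU it was 0.606%, 0.897%, 0.799% and 1.02% in DMSO, and 0.236%, 0.278%, 0.460% and 0.355% in PlaB. The conditions did not overlap, and every PlaB library lay between the Control and the DMSO libraries. The mean rate of the 4 libraries was 0.0753% ± 0.0645 (SD, n = 4) without 4SU, 0.831% ± 0.175 for DMSO and 0.332% ± 0.0985 for PlaB, that is, 11.0 times the background in DMSO and 0.400 of the DMSO rate in PlaB. These rates rest on 24 conversions among 32559 covered T positions in Control, 486 among 61431 in DMSO and 114 among 33388 in PlaB. At least 1 conversion was carried by 0.333% of its reads in Control, 3.47% in DMSO and 1.53% in PlaB.

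All 3 differences of miR-130a-3p passed edgeR's quasi-likelihood test on conversions, with the covered T positions as offset. The log2 fold change was 3.46 (SE 0.455, adjusted p = 3.30e-13) for DMSO against Control, -1.31 (SE 0.387, adjusted p = 0.00605) for PlaB against DMSO and 2.15 (SE 0.464, adjusted p = 2.89e-05) for PlaB against Control. Two-sided exact permutation tests of its rates gave p = 0.0286 in each comparison, the smallest that 4 against 4 libraries can give.

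miR-130b-3p carried fewer conversions, on a level of reads of the same order. In Control, 3 libraries had no conversion and replicate 4 had 4, a rate of 0.0753%. The DMSO rates were 0.197%, 0.265%, 0.217% and 0.106%, and those in PlaB were 0.108%, 0%, 0% and 0.102%. All DMSO libraries lay above all Control libraries, whereas PlaB overlapped both other conditions, with replicate 1 of PlaB just above replicate 4 of DMSO. Within experiments, PlaB was below DMSO in 4 of 4. The means were 0.0188% ± 0.0377, 0.196% ± 0.0668 and 0.0524% ± 0.0605 (SD, n = 4), from 4, 55 and 9 conversions in Control, DMSO and PlaB. Its conversions rose in DMSO against Control, with log2 fold change 2.99 (SE 1.07, adjusted p = 0.0128 by edgeR's quasi-likelihood test). Without DMSO replicates 1 and 2 this call was lost (adjusted p = 0.110), at a log2 fold change of 2.73. PlaB against DMSO gave -1.80 (SE 0.969), which did not pass the same test (adjusted p = 0.184), and PlaB against Control gave 1.19 (adjusted p = 0.503). The exact permutation p of its rates was 0.0286 for DMSO against Control, 0.0571 for PlaB against DMSO and 0.429 for PlaB against Control.

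miR-130b-5p, the partner strand of the same hairpin, had the steadiest background, with rates of 0.0220%, 0.0254%, 0.0191% and 0.0200% in Control. In DMSO it had 0.153%, 0.276%, 0.0792% and 0.0751%, and in PlaB 0.108%, 0.0758%, 0.0155% and 0.0651%. All DMSO libraries were above Control, DMSO replicates 1 and 2 stood highest, and the DMSO and PlaB ranges overlapped. At least 1 conversion was carried by 1.16%, 2.21%, 1.06% and 0.546% of its reads in DMSO replicates 1 to 4. By this measure replicate 3 lay near replicate 1, with 20 such reads counted beside 12 conversions. Within experiments, PlaB was again below DMSO in 4 of 4, which in a paired exact sign-flip test of 4 pairs cannot give a p under 0.125. The means of the 3 conditions in this order were 0.0216% ± 0.0028, 0.146% ± 0.0939 and 0.0662% ± 0.0385 (SD, n = 4). Its conversions rose in DMSO, with log2 fold change 2.73 (SE 0.717, adjusted p = 5.15e-04 by edgeR's quasi-likelihood test), a call that was lost without DMSO replicates 1 and 2, at 1.80 (adjusted p = 0.129). PlaB against DMSO gave -1.14 (SE 0.654, adjusted p = 0.218) and PlaB against Control 1.59 (SE 0.741, adjusted p = 0.0884) by the same test. The exact permutation p of the rates was 0.0286, 0.171 and 0.143 for DMSO against Control, PlaB against DMSO and PlaB against Control. Of its reads, 11.8% mapped to several places.

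No conversion was seen in miR-301a-3p, with 911 reads and 5459 covered T positions over the 12 libraries, or in miR-301b-3p, with 321 reads and 1920. A count of 0, taken as 3 conversions at most, allows a rate of up to 0.135% for miR-301a-3p and 0.373% for miR-301b-3p in DMSO. The 4 DMSO libraries together gave 0.791% for miR-130a-3p (95% Wilson interval 0.724% to 0.864%), 0.201% for miR-130b-3p (0.155% to 0.262%) and 0.153% for miR-130b-5p (0.128% to 0.182%). The limit for miR-301a-3p lay under the intervals of miR-130a-3p and miR-130b-3p and within that of miR-130b-5p. Its own 95% Wilson interval in DMSO reached 0.172%, however, which is within the interval of miR-130b-3p. A rate like that of miR-130b-3p was thus not excluded for miR-301a-3p. For miR-301b-3p the limit lay under the interval of miR-130a-3p alone, so that rates like those of the miR-130b strands were not excluded. Such intervals and limits hold for counting error alone, because PCR copies of 1 molecule were not told apart.

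Of the 368 miRNAs in the conversion test, 51.1% rose in DMSO against Control, as did all 3 members in it. PlaB against DMSO was called lower for 18.8% of them and for 1 of the 3 members. PlaB against Control was called higher for 32.3% and again for 1 of the 3, miR-130a-3p both times. The median log2 fold change over all 368 was 3.06, -1.33 and 1.57 in these comparisons, beside medians of 2.99, -1.31 and 1.59 over the 3 members. The miR-301 members, with no conversion, could not enter this test.

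The DMSO rate of miR-130a-3p ranked 15 among 158 miRNAs over 100 CPM in every library, whose median rate was 0.183%. miR-130b-3p ranked 73 and miR-130b-5p 88. Within DMSO, the rate of miR-130a-3p exceeded that of miR-130b-3p in 4 of 4 libraries, 4.24-fold by the means, and that of miR-130b-5p in 4 of 4, 5.70-fold. miR-130b-3p was above its partner strand in 3 of 4 libraries, 1.34-fold by the means. These ranks and folds are of label and do not order the miRNAs by speed of synthesis. The study states that its method cannot directly compare synthesis rates between miRNAs, and that U content also influences labelling. Whether PlaB acted unequally on the members was tested on log2 rate ratios between them, in 3 pairs. The ratio of miR-130a-3p to miR-130b-3p was higher by 0.94 in PlaB than in DMSO (exact permutation p = 0.400), that of miR-130a-3p to miR-130b-5p lower (difference -0.19, exact permutation p = 0.886) and that of miR-130b-3p to miR-130b-5p lower (difference -1.13, exact permutation p = 0.200). None passed before adjustment.

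The PlaB/DMSO ratio, the mean PlaB rate minus Control divided by the mean DMSO rate minus Control, is the share of label left under PlaB. It was 0.340 for miR-130a-3p, the same as the median over 118 labelled miRNAs (0.340, quartiles 0.204 and 0.608), where it ranked 60 from the lowest. In the 4 experiments it was 0.266, 0.173, 0.576 and 0.314. The 118 are the miRNAs over 100 CPM in every library, called higher in DMSO against Control, with a mean PlaB rate above Control. Ratios of 0 or below were thus left out of the median, the quartiles and the ranks. The DMSO rate is also part of the denominator, so that choosing by the DMSO call can favour low ratios. Both miR-130b strands entered through calls that were lost without DMSO replicates 1 and 2. miR-130b-3p had 0.189, rank 24, with 0.547, 0, 0 and 0.879 by experiment, and leaving out each experiment in turn moved it between 0.0519 and 0.302. miR-130b-5p had 0.359, rank 63, with 0.658, 0.201, -0.0596 and 0.819 by experiment. Leaving out each experiment moved it between 0.251 and 0.519, and without DMSO replicates 1 and 2 it was 0.803. The SD between experiments was 0.173 for miR-130a-3p, 0.433 for miR-130b-3p and 0.405 for miR-130b-5p, so that for both miR-130b strands it exceeded the ratio itself.

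In read counts, miR-130a-3p rose with 4SU and no other member passed the test in any comparison. miR-130a-3p had 902, 743, 946 and 926 CPM in Control, 1320, 1132, 1238 and 1183 in DMSO, and 983, 855, 1262 and 1191 in PlaB. All DMSO libraries lay above all Control libraries, and the PlaB libraries overlapped both. The means were 879 ± 92.8, 1218 ± 80.4 and 1073 ± 187 CPM (SD, n = 4). It rose in DMSO against Control, with log2 fold change 0.49 (SE 0.126, adjusted p = 0.0288 by edgeR's quasi-likelihood test, or 0.00206 with the experiment as a block). The call was lost in 11 of 20 alternatives, among them 8 of the 12 that leave out 1 library, with adjusted p up to 0.134, while the log2 fold change stayed between 0.40 and 0.50. PlaB against DMSO gave -0.19 (SE 0.126, adjusted p = 0.940) and PlaB against Control 0.29 (SE 0.126, adjusted p = 0.263) by the same test.

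miR-130b-3p had 702, 328, 562 and 610 CPM in Control, 792, 567, 640 and 657 in DMSO, and 669, 421, 720 and 709 in PlaB. Replicate 2 was the lowest in each condition, and the conditions overlapped. miR-130b-5p had 1023, 823, 1083 and 1049 CPM in Control, 1114, 691, 933 and 930 in DMSO, and 1137, 666, 1010 and 904 in PlaB, again with replicate 2 lowest and with overlap throughout. By the same test neither strand was called in any comparison, with log2 fold changes between -0.11 and 0.29 and adjusted p between 0.549 and 0.992.

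The miR-301 members were far less abundant. miR-301a-3p had 15.0, 46.0, 25.9 and 20.5 CPM in Control, 34.0, 29.3, 41.9 and 29.5 in DMSO, and 47.3, 43.4, 43.9 and 42.4 in PlaB. Every PlaB library was above every DMSO library, while Control replicate 2 reached the PlaB level. The log2 fold change was 0.39 for PlaB against DMSO (adjusted p = 0.940 by edgeR's quasi-likelihood test) and 0.71 for PlaB against Control (SE 0.300, adjusted p = 0.250). Without Control replicate 2 the latter was 1.13 and passed the test (adjusted p = 0.0140). miR-301b-3p, which rests on 321 reads in all, had 9.59, 7.52, 11.6 and 7.12 CPM in Control, 7.99, 9.46, 17.7 and 18.3 in DMSO, and 15.1, 11.6, 19.5 and 19.9 in PlaB. PlaB lay above Control in all libraries, by a narrow margin between its replicate 2 and Control replicate 3, and overlapped DMSO. Its log2 fold change for PlaB against Control was 0.90 (adjusted p = 0.250 by the same test). Over the 12 libraries, 0.220% of the miR-301a-3p reads and 0.312% of the miR-301b-3p reads mapped to several places. Beyond this, how reads were split between these near-identical sequences was not tested.

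By mean CPM over the 12 libraries the members ranked 63 (miR-130a-3p), 70 (miR-130b-5p), 85 (miR-130b-3p), 252 (miR-301a-3p) and 358 (miR-301b-3p) of 2652. Within libraries, miR-130a-3p exceeded miR-130b-5p in 7 of 12, with 0 of 4 Control, 4 of 4 DMSO and 3 of 4 PlaB libraries, so that these 2 had no fixed order. Each of the other neighbours in the order was higher than the next in 12 of 12 libraries. Of the 537 miRNAs tested for reads, 5.96% were called in DMSO against Control, 5 higher and 27 lower, and 1 of the 5 members, miR-130a-3p, was among those higher. PlaB against DMSO called 0.372% (2 miRNAs, miR-92b-3p and miR-942-3p, both lower) and no member, with no member at an unadjusted p under 0.05 by edgeR beside 30 of the 537. DESeq2 called 6 miRNAs and again no member. PlaB against Control called 6.7% and no member, although miR-130a-3p, miR-301a-3p and miR-301b-3p had an unadjusted p under 0.05 by edgeR (0.0338, 0.0312 and 0.0295). With the experiment as a block, 60 miRNAs in place of 32 were called in DMSO against Control and 6 in place of 2 in PlaB against DMSO, with no further member among them.

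The miRNAs with the most similar course of reads were found by the smallest root mean square difference of centred log2 CPM over the 12 libraries. For miR-130a-3p they were miR-16-5p (0.145), miR-26a-5p (0.176) and miR-191-5p (0.177), for miR-130b-3p miR-122-5p (0.161), miR-423-5p (0.168) and miR-320b (0.168), and for miR-130b-5p miR-1269a (0.122), miR-885-5p (0.130) and miR-125b-5p (0.136). The nearest to the scarce miR-301a-3p and miR-301b-3p, miR-491-5p (0.372) and miR-641 (0.309), were farther away.

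Of the other strands of the hairpins, which are not members, miR-130a-5p fell when 4SU was present. These strands are shown because they come from the same precursors, with seeds in capitals.
hsa-miR-130a-5p: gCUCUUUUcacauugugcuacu
hsa-miR-301a-5p: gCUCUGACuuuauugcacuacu
hsa-miR-301b-5p is named only. miR-130a-5p had 95.9, 48.5, 57.4 and 82.5 CPM in Control, 20.4, 12.5, 17.7 and 36.6 in DMSO, and 17.7, 23.2, 4.39 and 11.0 in PlaB. All Control libraries were above all those with 4SU. It fell in DMSO, with log2 fold change -1.69 (SE 0.421, adjusted p = 0.0236 by edgeR's quasi-likelihood test) and in PlaB against Control by -2.30 (adjusted p = 0.00262). The first of these calls held in 13 of 19 alternatives and the second in 19 of 19.

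The miR-130a-5p reads that were left in DMSO carried more label than those of miR-130a-3p. There was no conversion among 5736 covered T positions in Control, which allows a rate of up to 0.0523%, but 15, 4, 6 and 16 conversions in DMSO, at rates of 2.01%, 0.990%, 1.72% and 2.24%. Pooled over libraries, the DMSO rate was 35.4 times this Control limit. That fold is not a lower bound, because it leaves out the error of the DMSO rate. The Wilson interval of the pooled rate began at 1.37% in DMSO and reached 0.0669% in Control, so the 2 did not overlap. The 41 DMSO conversions lay in 33 reads. The conversions rose in DMSO against Control (adjusted p = 1.39e-05 by edgeR's quasi-likelihood test). Of the 228 DMSO reads, 14.5% carried a conversion, beside 3.47% of miR-130a-3p. These reads covered 9.71 T positions each on average, beside 4.49 for miR-130a-3p. Per covered T position, the pooled DMSO rates were 1.85% and 0.791%. In PlaB, 2 conversions were seen, both in replicate 2, among 988 covered T positions. PlaB against DMSO gave -3.20 (SE 1.42), short of the threshold (adjusted p = 0.0917), with rates that did not overlap (exact permutation p = 0.0286). miR-301a-5p had no conversion in Control, 7, 1, 0 and 11 in DMSO and 0, 0, 1 and 5 in PlaB. It was called higher in DMSO against Control (adjusted p = 0.00339 by edgeR's quasi-likelihood test), although its partner miR-301a-3p had none. The miR-301a-5p rates overlapped in that comparison, however, with an exact permutation p of 0.143. The mean rate of miR-301a-5p in PlaB was 1.03 times that in DMSO. This mean leans on PlaB replicate 3, at 4% from 1 conversion among 25 covered T positions and 3 reads. With the libraries pooled, PlaB had 0.726% of covered T positions converted, beside 1.23% for DMSO. PlaB against DMSO gave -0.73 (SE 1.45, adjusted p = 0.737 by edgeR's quasi-likelihood test), too wide to settle whether the label changed. Like DMSO against Control, PlaB against Control was called (adjusted p = 0.0256 by the same test), a call lost in 7 of 18 alternatives. Here too the rates overlapped, with an exact permutation p of 0.429. miR-301b-5p had 0, 7 and 2 conversions and could not be tested, with no covered T position in 1 library.

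The share of reads on the 3p strand gives the balance of the arms within each hairpin. For miR-130a it was 90.4%, 93.9%, 94.3% and 91.8% in Control, 98.5%, 98.9%, 98.6% and 97.0% in DMSO, and 98.2%, 97.4%, 99.7% and 99.1% in PlaB. For miR-301a it was 43.9%, 55.6%, 49.5% and 35.0% in Control, 71.7%, 67.6%, 68.5% and 59.8% in DMSO, and 78.3%, 79.6%, 95.9% and 62.8% in PlaB. In both hairpins every library with 4SU had a higher 3p share than every Control library. The miR-130b hairpin, whose arms are nearer in level, went from 35.0% ± 5.11 in Control to 42.2% ± 1.95 in DMSO and 40.3% ± 3.06 in PlaB, and miR-301b from 46.2% ± 9.56 to 69.0% ± 11.3 and 82.7% ± 19.1 (SD, n = 4). DMSO lay wholly above Control for miR-130a, miR-130b and miR-301a and overlapped for miR-301b. For miR-130b the margin was narrow, with 40.71% in DMSO replicate 3 and 40.70% in Control replicate 1. PlaB lay wholly above Control for miR-130a, miR-301a and miR-301b.

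**Figure D1:**
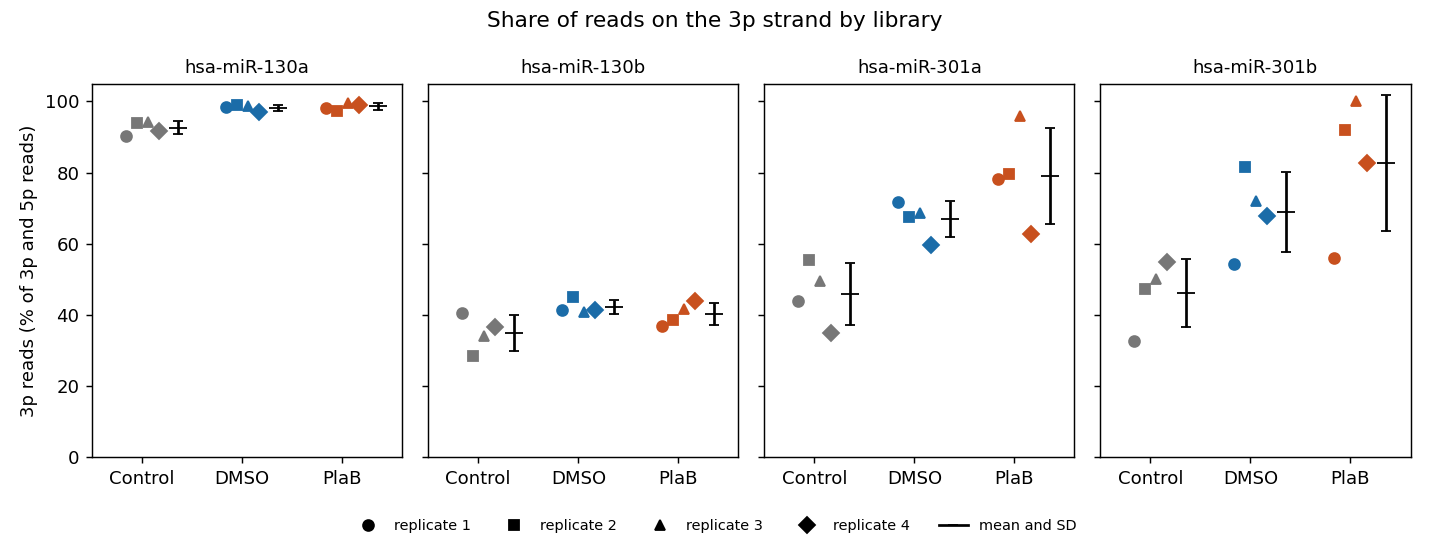
Share of reads on the 3p strand (y axis, % of 3p and 5p reads of the hairpin, from 0) by condition (x axis) for the 4 hairpins of the family. Points are libraries, the marker gives the replicate number and the bar is the mean ± SD of 4 libraries. The DMSO and PlaB libraries sit above Control in miR-130a and miR-301a, and the miR-301 hairpins spread most in PlaB.

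Of 132 hairpins with both arms past the read filter, 12.9% had a 3p share wholly higher in DMSO than in Control, and 15.9% wholly lower, beside 3 and 0 of the 4 family hairpins. In PlaB against Control it was 9.85% higher and 15.9% lower, again beside 3 and 0. The direction went with the more abundant arm, taken from the mean share over the 12 libraries. In DMSO against Control, of 55 hairpins with mostly 3p reads 15 were wholly higher and 3 wholly lower, and of 77 with mostly 5p reads 2 were higher and 18 lower. The 3p share of miR-130a, miR-301a and miR-301b, which are among the 55, rose, the more frequent direction there, and hairpins outside the family rose too. miR-130b is among the 77 and is among the 2 wholly higher there. The class of the miR-301 hairpins rests in part on the libraries with 4SU, where their 3p share was higher. In Control alone their mean 3p share was 46.0% (miR-301a) and 46.2% (miR-301b). By Control they would be classed with mostly 5p reads, where a fall was more frequent. The family hairpins differed in their means by 5.65 (miR-130a), 7.14 (miR-130b), 20.9 (miR-301a) and 22.8 (miR-301b) points in DMSO. The two-sided exact permutation p was 0.0286 for the hairpins that did not overlap, or 0.0992 in DMSO and 0.111 in PlaB after Benjamini-Hochberg adjustment over the 132 hairpins. With 4 against 4 libraries no hairpin could pass 0.05 unless 76 of the 132 reached the smallest p. Between PlaB and DMSO the shares of all 4 hairpins overlapped. A change of the 3p share cannot by itself be told apart from a loss of 5p reads, and the 5p strands of the miR-301 hairpins had between 0 and 91 reads per library. Mean CPM in Control, DMSO and PlaB was 30.1, 16.6 and 12.8 for miR-301a-5p, beside 26.9, 33.7 and 44.3 for its 3p strand. For miR-301b-5p it was 11.4, 6.09 and 4.26, beside 8.96, 13.4 and 16.5. No strand of these hairpins was called for reads in any comparison.

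Among relatives outside the family list, miR-454-3p, which has the same seed and comes from the SKA2 transcript like miR-301a, had 362 to 490 CPM and was little labelled. It had 1, 11 and 2 conversions among 31882, 46883 and 25315 covered T positions in Control, DMSO and PlaB, and 10 of the 11 came from DMSO replicate 1 (adjusted p = 0.226 by edgeR's quasi-likelihood test for DMSO against Control). Its partner miR-454-5p had 0, 10 and 2 conversions and was called in DMSO against Control (adjusted p = 0.0244 by the same test), a call lost in 6 of 18 alternatives, 4 of them with 1 library left out. The miR-454-5p rates overlapped in that comparison (exact permutation p = 0.143). miR-3666 and miR-4295, which also carry the seed AGUGCAA, had no read in any library.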

How the data were processed

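The libraries were prepared from total RNA by iodoacetamide alkylation and a small RNA kit. The authors trimmed the reads (Trim Galore in the submitters' processing notes), aligned them to GRCh38 and, with SLAM-DUNK, counted those within mature miRNA coordinates, multi-mapping reads included and sequence variants masked. Each deposited table holds counts of reads, covered T positions, T>C conversions and reads with a conversion. The authors also deposited CPM values, scaled to equal library totals, and conversion rates, each a fraction of covered T positions that is given here in percent. It was checked that these equal the values recomputed from the counts.

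Read counts were compared with edgeR 4.0.16 in R 4.3.3 (quasi-likelihood, TMM factors, 1 fit of the 3 conditions over 12 libraries), with Benjamini-Hochberg adjustment over 537 miRNAs that pass filterByExpr and a threshold of 0.05. Conversions were tested with log covered T positions as the offset over 368 of these, with at least 1 conversion and coverage in every library. This set is wider than the study's limit of 100 CPM, under which the miR-301 members fall. The SE is the log2 fold change divided by the square root of F. The script was tested on simulated data. Permutation tests (70 labelings) and figures used Python 3.11.15, scipy 1.17.1 and matplotlib 3.10.9. For member pairs, 0.5 conversions were added on the log2 scale, and this test and the split of hairpins by their more abundant arm were added after the data were seen. Alternatives were RLE factors, library totals, DESeq2 1.42.0, other filters, reads with a conversion, the 8 libraries compared alone, a replicate block and libraries left out.

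The members and lists were chosen with earlier results of these data known. The named miRNAs are the members, their other strands, relatives by seed or cluster, and the 3 miRNAs of most similar course over 100 CPM (5 CPM for the miR-301 members) in all libraries. Replicate numbers mark experiments that held all 3 conditions, per the study's methods. Deviations of log2 CPM from the condition mean correlated with a median r of 0.557 (lowest 0.208) for libraries of the same number, and -0.204 for others, over 158 miRNAs. For the T>C conversion rate the median r was 0.102 (from -0.859 to 0.882) for the same number and -0.0178 for others. Pairing by experiment was thus seen in reads but hardly in rates, on which the PlaB/DMSO ratios by experiment rest.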

Additional observations from a re-analysis of the deposited data

Results flagged for a closer look

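Among 50 groups of 4 libraries of the members, the other strands and miR-454, 6 held 1 library far from the other 3. Chance gives about 1 in 20 such groups for continuous values, a rate that does not apply to 5 of the 6, in which the other 3 libraries were tied at 0 conversions. The sixth was miR-130b-3p, with 421 CPM in PlaB replicate 2 beside 669 to 720 CPM in the other PlaB libraries. Of the tied groups, miR-130b-3p had a T>C conversion rate of 0.0753% in Control replicate 4, miR-130a-5p 0.437% in PlaB replicate 2, miR-301b-5p 1.89% in PlaB replicate 1, and miR-454-3p 0.0116% in Control replicate 2 and 0.0312% in PlaB replicate 4, from 1 to 4 conversions each. The causes were not tested.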

How the results depend on the processing

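The conversion calls of miR-130a-3p held under all 19 alternatives, with adjusted p between 3.58e-04 and 0.0356 by edgeR or DESeq2 for PlaB against DMSO. For reads in DMSO against Control, the 32 miRNAs called became 17 without DMSO replicates 1 and 2, 8 among miRNAs over 100 CPM (fewer tested), 60 with the replicate block, and 15 to 37 with each library left out. For PlaB against DMSO, the 2 called became 6 with DESeq2, 6 with the replicate block, 5 with no filter, 1 with library totals or over 100 CPM, 0 with RLE factors, the 8 libraries alone or without DMSO replicates 1 and 2, and 0 to 1 with each library left out. For PlaB against Control, 36 became 6 over 100 CPM. The replicate block changed no call of a member. The PlaB/DMSO ratio of miR-130b-5p moved to 0.803 without DMSO replicates 1 and 2. Uncalled log2 fold changes of reads near 0 turned sign. For PlaB against DMSO, miR-130b-3p ranged from -0.14 to 0.061 (0.044 without DMSO replicate 1) and miR-130b-5p from -0.093 to 0.15 (-0.065 without DMSO replicate 2 and -0.019 without PlaB replicate 3) with 1 library left out. Without DMSO replicates 1 and 2, miR-130b-5p was at -0.021 and miR-301b-3p at -0.14. For PlaB against Control, miR-130b-5p ranged from -0.18 to 0.044. The call of miR-130b-5p conversions in PlaB against Control, not made in the report, passed with DESeq2 (adjusted p = 0.0482) and without PlaB replicate 3 (0.0340). The causes were not tested. Depth limits the miR-301 members and all 5p strands except miR-130b-5p.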
